A study of Mus musculus with 59 samples.

Results

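The comparison is the 4 h step across dawn in mouse medial prefrontal cortex, the frontal midline cortex that serves executive control and emotion, between libraries taken at zeitgeber time 22 (ZT22) and at ZT2. Its members are the 20 libraries whose labels give those times, 10 at ZT22 and 10 at ZT2, out of 59 libraries at 6 times. ZT22 and ZT2 each held 5 libraries of females and 5 of males, all from homogenised tissue of adult wild-type C57BL/6J mice, an inbred strain, with no treatment named. All 4484 genes of the deposited table were used, and 4273 of them had enough reads to be tested. No light schedule is given in the labels, so ZT0 is read as lights on by convention, ZT22 as late night and ZT2 as early day. They do not say that each library is a different mouse, and animal numbers recur within groups, so the error behind each p-value is that between libraries, which may in part be technical. In homogenate, fewer cells of a type and less RNA per cell cannot be told apart.

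The mouse is active at night, and dawn is the passage from its active to its rest phase. The clock that runs in most cells turns on a feedback loop: CLOCK and BMAL1 activate the Period and Cryptochrome genes and the genes of REV-ERB alpha and beta (Nr1d1, Nr1d2), and the proteins made from these repress their own activators. Genes such as Arc, Fos and Junb are a separate class, the immediate early genes, which neurons transcribe within minutes of firing, so their levels in cortex are known to follow waking and experience. Period genes also carry elements that respond to neuronal activity and glucocorticoid.

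The libraries held 7113143 to 10874211 reads, as recovered from the table's values. At ZT2 the mean was 9520210 reads (SD 1208196, n = 10) and at ZT22 it was 8206448 (SD 1007838, n = 10), a difference with a two-sided permutation p of 0.0196 and an adjusted p of 0.0981 over the 5 library measures compared. Most of these reads fell on 6 noncoding genes, led by Gm42418 at a mean of 48.8% over the 59 libraries. Together the 6 took 78.5% ± 4.81 (SD) of the reads counted over the 4484 genes at ZT2 and 77.7% ± 6.15 at ZT22 (permutation p = 0.75). Reads outside these genes, on which nearly all results rest, numbered 1114044 to 2544097 per library and differed less between the times (permutation p = 0.304). The 4 libraries of the last run of serial numbers, 49 to 60, lay at -20.6 to -16.0 on the first principal component, against -14.7 to 35.6 for the other 16. These 4 libraries are spread evenly over both times and sexes.

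No gene passed the test between ZT22 and ZT2. Of 4273 genes tested, 0 were higher and 0 lower at ZT2 with an adjusted p under 0.05 (limma, 0% called), and the smallest adjusted p was 0.885. At an unadjusted p under 0.05 there were 203 genes, 87 of them higher at ZT2 and the rest lower, beside the 213.65 that are 5% of the genes tested. Without replicate 1 of the ZT22 males that number was 415, still with 0 passing. limma voom on the recovered reads also called 0 genes, with 192 at an unadjusted p under 0.05. No gene had ZT2 libraries that all lay above or all below the ZT22 libraries (0% of genes). What the step shows is therefore given below as levels, differences and intervals, and the genes named with it did not pass unless a passed test is stated. Many of these genes were picked for a small p in these same libraries. Their counts of pairs of the same sex and run, or of libraries beyond the other group, follow in part from that choice and add no support.

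The measurement was tight enough to bound the step for most genes. Differences are ZT2 minus ZT22 on the log2(scaled count + 1) scale, with standard errors (SE) from a model with sex and run of serial numbers as terms. The median SE was 0.13, the median absolute difference 0.09 and the 90th percentile of absolute differences 0.31. The 95% interval lay inside a 2-fold change in either direction for 3938 genes (92.2%) and inside a 1.5-fold change for 3344 (78.3%). Of the 2944 genes with a mean log2 value of at least 8, 2939 (99.8%) were bounded within 2-fold and 2830 (96.1%) within 1.5-fold. For 0 genes did the interval lie wholly beyond 2-fold. Wider intervals belonged mostly to genes of low level.

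**Figure D1:**
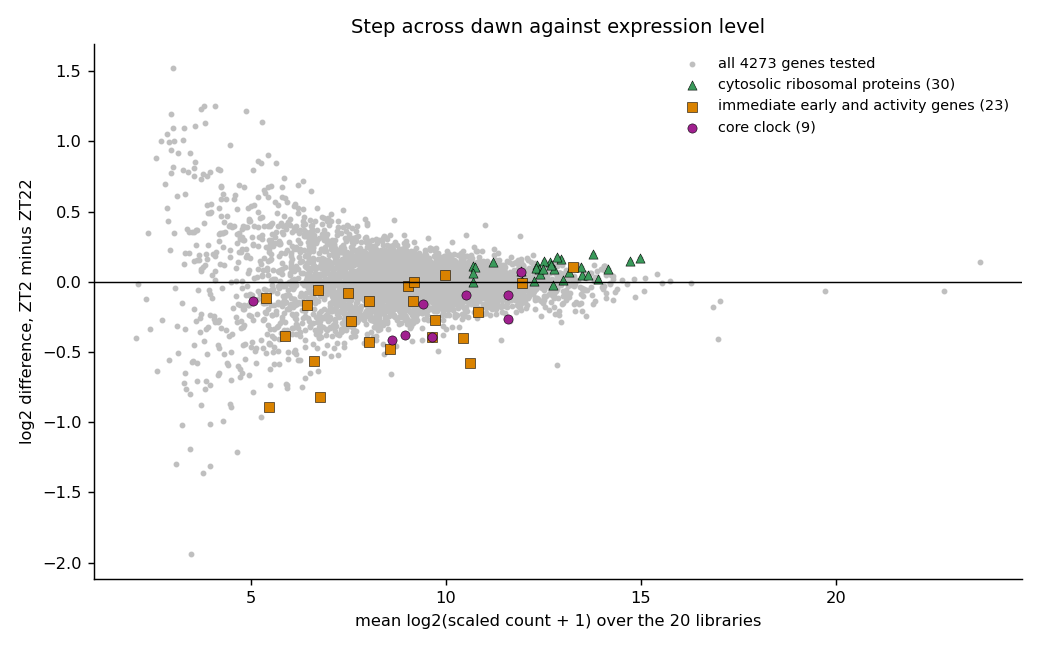
Difference across dawn (vertical axis, log2 scale, ZT2 minus ZT22) against mean log2(scaled count + 1) over the 20 libraries (horizontal axis), 1 point a gene; coloured points mark 3 gene lists. Differences scatter widely only at low level, and 8 of 9 core clock genes and 21 of 23 immediate early genes lie below 0.

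Core clock genes were mostly lower in early day than in late night, by amounts that did not pass. The list names 28 clock genes; the table holds 9, and all 9 were tested. The number lower at ZT2 was 8, against 2164 of all 4273 genes tested (50.6%), and the median difference was -0.16, against -0.002 for all genes. An unadjusted p under 0.05 was found for 4 of the 9, beside 203 of all 4273. The 3 Period genes, whose proteins repress CLOCK and BMAL1, and Hlf, a transcription factor of the clock's output arm, were those 4.

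The upstream sequences of Per1, Per3 and Hlf, among the clock genes of smallest p, and of Ier5l, a gene whose step differed between dawn and dusk, are shown because a searched motif was found in them. They are the 250 bases before the RefSeq start (GRCm38.p6), 5′ to 3′ on the gene's strand, for Per1 at chr11:69098699-69098948 (plus strand, the upstream 1 of 2 starts), Per3 at chr4:151044666-151044915 (minus), Hlf at chr11:90390918-90391167 (minus) and Ier5l at chr2:30474200-30474449 (minus). Capitals mark the E-box CACGTG bound by CLOCK and BMAL1 in Per1, the D-box TTATGTAA bound by the family of Hlf in Per3, the cAMP response element TGACGTCA in Hlf, and the heat shock element GAACATTC in Ier5l (searched as GAA, 2 bases, TTC).
Per1: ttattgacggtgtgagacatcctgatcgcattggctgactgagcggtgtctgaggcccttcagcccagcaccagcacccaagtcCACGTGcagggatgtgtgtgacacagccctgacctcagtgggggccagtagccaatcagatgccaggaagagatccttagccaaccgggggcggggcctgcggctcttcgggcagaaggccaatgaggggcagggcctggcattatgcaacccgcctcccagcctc
Per3: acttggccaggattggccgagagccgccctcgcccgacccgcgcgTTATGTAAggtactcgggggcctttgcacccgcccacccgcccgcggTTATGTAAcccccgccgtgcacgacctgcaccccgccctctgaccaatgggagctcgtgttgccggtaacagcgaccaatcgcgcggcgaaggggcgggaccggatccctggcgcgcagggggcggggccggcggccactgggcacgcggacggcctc
Hlf: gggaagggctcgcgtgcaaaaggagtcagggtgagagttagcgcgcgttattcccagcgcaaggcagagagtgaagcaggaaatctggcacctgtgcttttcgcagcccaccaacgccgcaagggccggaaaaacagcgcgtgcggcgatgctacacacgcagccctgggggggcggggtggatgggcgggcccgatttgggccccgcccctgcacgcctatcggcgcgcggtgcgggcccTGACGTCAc
Ier5l: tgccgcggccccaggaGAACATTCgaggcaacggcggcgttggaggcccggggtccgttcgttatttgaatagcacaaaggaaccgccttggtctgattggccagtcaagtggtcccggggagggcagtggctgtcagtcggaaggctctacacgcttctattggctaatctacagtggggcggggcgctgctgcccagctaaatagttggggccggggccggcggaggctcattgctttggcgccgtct

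In Per1 the E-box began 166 bases before the start, and in Per3 the D-boxes began 205 and 158 bases before it. In Hlf the cAMP response element began 9 bases before the start and in Ier5l the heat shock element 234 bases before it. Both strands were searched, and the D-box was accepted with either T or C after TTA. Among all 32851 RefSeq promoter windows of this length, 6.02% held an E-box, 0.931% a D-box, 1.55% a cAMP response element and 6.69% a heat shock element. Of the 3205 tested genes with a window, 9.73% held an E-box in at least 1 window, 0.624% a D-box, 3.24% a cAMP response element and 5.65% a heat shock element. Of the 9 clock genes 7 had a window, and 1 each held an E-box (Per1), a D-box (Per3) and a cAMP response element (Hlf). An ER stress response element (CCAAT, 9 bases, CCACG) was in 0.113% of all windows and in none of these 7. Of the 5 genes whose step differed between dawn and dusk 3 had a window (Ier5l, Junb and Tsc22d3); 1 held a heat shock element (Ier5l) and none another of these motifs. A match is a run of letters, not a measured binding site.

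Per1 (chr11:69095217-69109960, GRCm38) ranged from 9.54 to 10.36 at ZT22, with a median of 9.79, and from 8.78 to 10.03 at ZT2, with a median of 9.35. The groups overlapped, with 7 of the 10 ZT2 libraries below every ZT22 library. The difference was -0.39 ± 0.13 (SE), a level 23.8% lower at ZT2, with an unadjusted p of 0.0071 and an adjusted p of 0.945.

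Per2 (chr1:91415982-91459324) ranged from 8.47 to 9.18 at ZT22 (median 8.88) and from 7.44 to 8.89 at ZT2 (median 8.56). Its 2 lowest ZT2 libraries were from females, and 4 ZT2 libraries lay below all ZT22 libraries. The difference was -0.41 ± 0.14 (unadjusted p = 0.00741, adjusted p = 0.945).

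Per3 (chr4:151003652-151044665) was the tightest of the Period genes at ZT22, from 8.94 to 9.38 (median 9.11), and ran from 8.17 to 9.32 at ZT2 (median 8.73). It was lower at ZT2 in 9 of 10 pairs of the same sex and run. The difference was -0.38 ± 0.10 (unadjusted p = 0.00103, adjusted p = 0.885), a level 22.9% lower with a 95% interval from 0.668 to 0.888 of the ZT22 level.

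Hlf (chr11:90336536-90390895) ranged from 11.50 to 11.98 at ZT22 (median 11.65) and from 11.06 to 11.74 at ZT2 (median 11.46). All 10 pairs were lower at ZT2, and 6 ZT2 libraries lay below every ZT22 library. The difference was -0.27 ± 0.08 (unadjusted p = 0.00217, adjusted p = 0.945).

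The other clock genes were closer to level. Nr1d1, encoding the repressor REV-ERB alpha, averaged 9.48 ± 0.37 (SD, n = 10) at ZT22 and 9.32 ± 0.47 at ZT2, a difference of -0.16 ± 0.17 (SE), which was -0.06 without replicate 4 of the ZT2 females and -0.27 without replicate 4 of the ZT2 males. Of its 3077 exonic bases 263 are shared with Thra on the other strand, and the strand setting of the counting is not given in the sources used here. Nr1d2, its paralog, differed by -0.09 ± 0.09 and Rora, the activator that competes with both, by -0.10 ± 0.09. Arntl2, a paralog of Bmal1, had 1 to 36 reads in a library and a difference of -0.14 ± 0.54, an interval from -1.27 to 0.999 that bounds little. For the 8 clock genes other than Arntl2 a change of 2-fold or more in either direction lies outside the 95% interval.

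**Figure D2:**
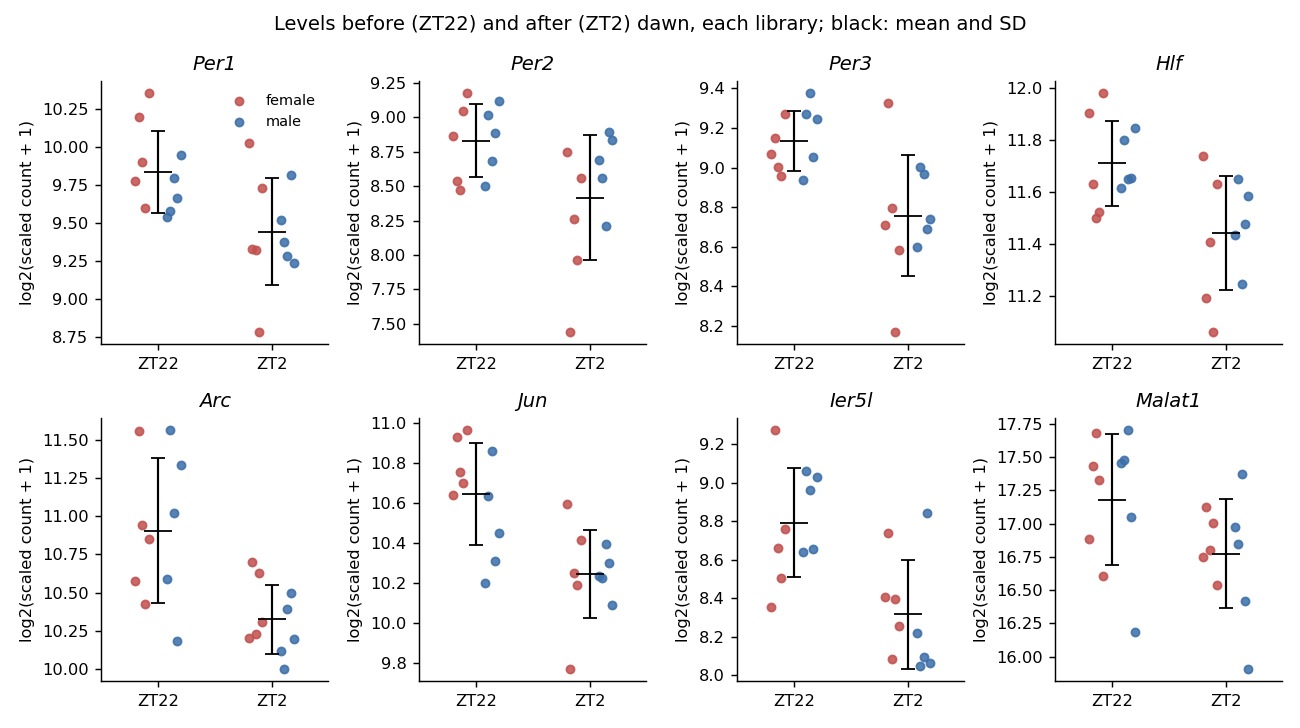
Levels of 8 genes, log2(scaled count + 1) on the vertical axis, in each library at ZT22 and ZT2; points are libraries, coloured by sex, and black marks are the mean and SD of 10 libraries. In all 8 genes the mean is lower at ZT2 and the groups overlap.

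Immediate early and activity-regulated genes were also mostly lower at ZT2, and none passed. All 23 list genes of the table were tested, and 21 were lower at ZT2, where 50.6% of all genes were. The median difference was -0.22, beside -0.002 for all genes. The 7 with an unadjusted p under 0.05, each lower at ZT2, were Arc, Jun, Ier5l, Arl4d, Per1, Junb and Fos. Per1 belongs to both the clock and this list. Without the libraries numbered 49 to 60 the count was 19 of 23 here, with a median of -0.20, and 7 of 9 in the clock list, with a median of -0.14. More reads in the table at ZT2 moved with these groups, and its part in them was not tested. Under scaling by library totals the medians were -0.25 and -0.20, where that of all genes moved to -0.04.

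Arc (chr15:74669083-74672570), whose product sits at active synapses and drives removal of glutamate receptors, had the smallest p of all genes. At ZT22 it ranged from 10.18 to 11.57 (median 10.90) and at ZT2 from 9.999 to 10.70 (median 10.27). The ZT22 libraries were about evenly spread and reached far above the ZT2 group, while only 2 ZT2 libraries lay below every ZT22 library. The difference was -0.58 ± 0.14 (SE), a level 33.1% lower, with an unadjusted p of 0.000462 and an adjusted p of 0.885.

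Jun (chr4:95049034-95052222), a subunit of the AP-1 transcription factor, ranged from 10.20 to 10.96 at ZT22 (median 10.67) and from 9.77 to 10.59 at ZT2 (median 10.24), lower in 9 of 10 pairs. The difference was -0.40 ± 0.10 (adjusted p = 0.885). Of its 3189 exonic bases 232 are shared with Junos on the other strand.

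Ier5l (chr2:30471537-30474219), a relative of the immediate early gene Ier5, ranged from 8.36 to 9.27 at ZT22 (median 8.71) and from 8.05 to 8.84 at ZT2 (median 8.24). The ZT2 libraries bunched low, 6 of them below every ZT22 library, with 2 high ones, and the difference was -0.48 ± 0.13 (adjusted p = 0.885).

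Arl4d, a small GTPase of the ARF family, ranged from 6.79 to 7.40 at ZT22 (median 7.18) and from 5.12 to 7.15 at ZT2 (median 6.53). At 12 to 59 reads a library it was thinly counted, and its difference was -0.82 ± 0.25 (adjusted p = 0.945). Junb, another AP-1 subunit, differed by -0.27 ± 0.12 and Fos, the partner of both, by -0.43 ± 0.20. Egr1, an activity-induced zinc finger factor, differed by -0.22 ± 0.15 and Homer1, a scaffold of the postsynaptic density, by 0.10 ± 0.10. Nptx2, an activity-induced synaptic pentraxin, had a difference of 0.00 ± 0.17 and Plk2, an activity-induced kinase, -0.01 ± 0.08.

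Genes induced by glucocorticoid, the hormone that peaks before the active phase, had a median difference of -0.21 over 6 tested genes, of which 4 were lower at ZT2. Tsc22d3, whose protein GILZ damps inflammatory signalling, ranged from 9.68 to 10.58 at ZT22 (median 10.20) and from 9.16 to 10.24 at ZT2 (median 9.81). It was lower in 9 of 10 pairs, and the difference was -0.34 ± 0.13 (unadjusted p = 0.0171, adjusted p = 0.945). Ddit4, an inhibitor of the growth kinase mTOR, differed by -0.27 ± 0.14 and Pdk4, a kinase that slows glucose oxidation, by 0.07 ± 0.12. Per1 and Errfi1 are shared with the immediate early list, so the lists are not independent.

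Outside those lists the lower genes of smallest p had varied roles, and none passed. Being picked by p, they lean 1 way in most pairs by that choice. Malat1, a nuclear noncoding RNA and 1 of the 6 most abundant noncoding genes, ranged from 16.18 to 17.71 at ZT22 (median 17.38) and from 15.91 to 17.38 at ZT2 (median 16.82). It was lower in all 10 pairs, with a difference of -0.41 ± 0.11 and an adjusted p of 0.885. Hrh3, the histamine receptor that restrains release of histamine and other transmitters, ranged from 9.48 to 10.40 at ZT22 (median 10.13) and from 8.99 to 10.02 at ZT2 (median 9.58). Its difference was -0.50 ± 0.14 (adjusted p = 0.885), and 3 ZT2 libraries lay below every ZT22 library. Of the 3146 exonic bases of Hrh3, 349 are shared with Gm17180 on the other strand.

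Eif4ebp2, the main neuronal inhibitor of cap-dependent translation, was lower at ZT2 in all 10 pairs, by 0.43 in the log2 mean, and 7 ZT2 libraries lay below every ZT22 library. Its paralog Eif4ebp1 differed in the other direction, by 0.45 ± 0.17, on values of 6.75 ± 0.45 (SD, n = 10) at ZT22 and 7.21 ± 0.49 at ZT2. Kifc3, a kinesin motor, was also lower in all 10 pairs, with a difference of -0.27 ± 0.09 (SE), and shares 1458 of its 5298 exonic bases with other genes. Syt17, a synaptotagmin, differed by -0.24 ± 0.08 and Dzip1l, a protein of the primary cilium, by -0.41 ± 0.14. Plscr3, a mitochondrial phospholipid scramblase counted at 12 to 47 reads, differed by -0.75 ± 0.20, with 891 of its 3148 exonic bases shared with Tnk1.

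Of the 15 genes of smallest p that were higher at ZT2, 3 were thinly counted, and none passed. Their counts of pairs, too, follow in part from being picked by p. Nmrk1, a kinase that makes NAD from nicotinamide riboside, ranged from 4.06 to 6.07 at ZT22 (median 5.13) and from 5.05 to 6.67 at ZT2 (median 6.22). It was higher in all 10 pairs, with 7 ZT2 libraries above every ZT22 library, on 6 to 35 reads, and the difference was 0.85 ± 0.25 (adjusted p = 0.945). Arhgap45, a GTPase-activating protein, was likewise higher in all 10 pairs, by 1.14 ± 0.36, on 1 to 28 reads; on the recovered reads voom gave 0.91. P3h4, a protein of collagen modification, differed by 0.69 ± 0.23 on 6 to 45 reads.

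Among better-counted genes Schip1, a partner of the tumour suppressor merlin, ranged from 10.74 to 11.41 at ZT22 (median 11.20) and from 11.03 to 11.67 at ZT2 (median 11.34), a difference of 0.23 ± 0.07 (adjusted p = 0.945). It shares 1997 of its 5102 exonic bases with Iqschfp, a read-through of the same strand, so its reads are uncertain. The lysosomal sialic acid carrier Slc17a5 differed by 0.44 ± 0.14, the retinol carrier Rbp4 by 0.42 ± 0.14 and the zinc transporter Slc30a6 by 0.44 ± 0.16. Zfp277, a zinc finger protein, and Hist1h1a, a linker histone, were higher at ZT2 in all 10 pairs, by 0.24 ± 0.09 and 0.31 ± 0.11. Timm50, a receptor of mitochondrial protein import, differed by 0.33 ± 0.12 and Nhp2, a core protein of snoRNPs that modify ribosomal RNA, by 0.24 ± 0.09. The remaining ones were Fstl5 (0.28 ± 0.10), Arhgef15 (0.41 ± 0.14), Tpst2 (0.30 ± 0.11) and Rnf213 (0.51 ± 0.19).

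Genes of protein synthesis and respiration leaned the other way from the clock genes, by small amounts. Of 30 cytosolic ribosomal protein genes 28 were higher at ZT2, beside 2109 of all 4273 genes tested. Their median difference was 0.09, beside -0.002 for all genes, and 0 passed. Rplp0, a protein of the ribosomal stalk, averaged 12.74 ± 0.28 (SD, n = 10) at ZT22 and 12.92 ± 0.22 at ZT2, a difference of 0.18 ± 0.07 (SE). Rpl10a differed by 0.11 ± 0.07 and Rps19 by 0.15 ± 0.10. Ribosomal protein genes have many processed copies in the genome, so their reads are uncertain.

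Of 31 mitochondrial ribosomal protein genes 23 were higher at ZT2, with a median of 0.06, and of 30 nuclear genes of the respiratory chain 23 were higher, with a median of 0.05. Mrpl23 differed by 0.28 ± 0.12, Mrpl11 by 0.19 ± 0.10 and Mrps10 by 0.21 ± 0.11. The respiratory genes of smallest p were Sdhc of complex II (0.14 ± 0.07) and Uqcrfs1 and Uqcrc2 of complex III (0.21 ± 0.11 and 0.12 ± 0.07). Without replicate 4 of the ZT2 females the value of Uqcrfs1 was 0.11. Without the libraries numbered 49 to 60 the medians of these 3 lists were 0.09, 0.02 and 0.03, with 26, 19 and 19 genes higher. Scaled by library totals the medians were 0.06, 0.02 and 0.02, with 24, 18 and 18 higher. The median of all genes was there -0.04, a shift common to all genes. With the first 2 principal components in the model 22, 20 and 22 genes were higher. The higher total of reads at ZT2 moved with these lists too. Reads outside the 6 noncoding genes differed less, with means of 2004279 at ZT2 and 1818582 at ZT22 (permutation p = 0.304). The part of depth was not tested.

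Chaperones and stress genes did not lean clearly. Of 9 endoplasmic reticulum chaperone genes 5 were lower, with a median of -0.05. Xbp1, the transcription factor of the unfolded protein response, had a difference of 0.18 ± 0.08, Calr, a calcium-binding chaperone, -0.21 ± 0.10, Pdia3 -0.12 ± 0.07 and Hspa5, the main chaperone of that compartment, -0.11 ± 0.07. Of 11 heat shock chaperone genes 8 were lower, with a median of -0.02, and the smallest p belonged to Hsf1, their activator, at -0.22 ± 0.13. Of 11 genes of cholesterol synthesis and its control 6 were lower, with a median of -0.04, among them Srebf1, a transcription factor of lipid synthesis, at -0.30 ± 0.15. Hnrnph2, of 8 hnRNP genes split evenly, differed by -0.16 ± 0.07. Srsf2, of 12 splicing factor genes with 8 lower, differed by -0.16 ± 0.07, and Rbm5, of 12 RBM genes with 9 lower, by -0.19 ± 0.08. Srsf2 shares 748 of its 2958 exonic bases with other genes.

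Genes of transmission leaned in both directions, by list, and none passed. Of 8 monoamine, histamine and acetylcholine receptor genes 5 were lower, with a median of -0.17. Of the 6 with at least 50 reads in 10 or more of the 59 libraries 3 were lower, with a median of -0.08. Beside Hrh3 the serotonin receptor Htr1b differed by -0.24 ± 0.11. Of 7 ionotropic glutamate receptor genes 5 were higher, with a median of 0.09. Over the 6 that met the same minimum of 50 reads in 10 libraries the median was 0.05. Gria4 differed by 0.09 ± 0.08 and Grin3a by 0.10 ± 0.09, while Grid1 was lower, from -0.11 to -0.05 over single libraries left out. Both metabotropic ones, Grm3 and Grm5, were higher, by 0.12 ± 0.08 and 0.09 ± 0.06. Of 4 GABA receptor genes 3 were lower, with Gabbr1 at -0.14 ± 0.08. Ion channel genes had a median of -0.04 over 39, led by Kcns2 at 0.18 ± 0.09 and Cacna1g at -0.21 ± 0.11. Of 17 synaptic adhesion and scaffold genes 13 were lower, with a median of -0.08, among them Vamp2, a vesicle protein of the fusion machinery, at -0.24 ± 0.16. Without replicate 4 of the ZT2 females Vamp2 had -0.14 and Gabbr1 -0.09. Among genes of mTOR and insulin signalling, 11 of 16 lower with a median of -0.04, Foxo1, the transcription factor that insulin holds out of the nucleus, differed by -0.30 ± 0.12. Slc2a1, the glucose carrier of the blood-brain barrier, differed by -0.20 ± 0.09.

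Larger families sat at the median of all genes. Solute carriers had a median of -0.01 over 62 genes, zinc finger genes named Zfp -0.001 with 53 lower and 51 higher and Rab GTPases -0.02 over 22. Of the 43 lists 39 had a tested member. Their 574 distinct tested genes gave 0 passes and 39 with an unadjusted p under 0.05, beside 203 of all 4273 genes tested.

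**Figure D3:**
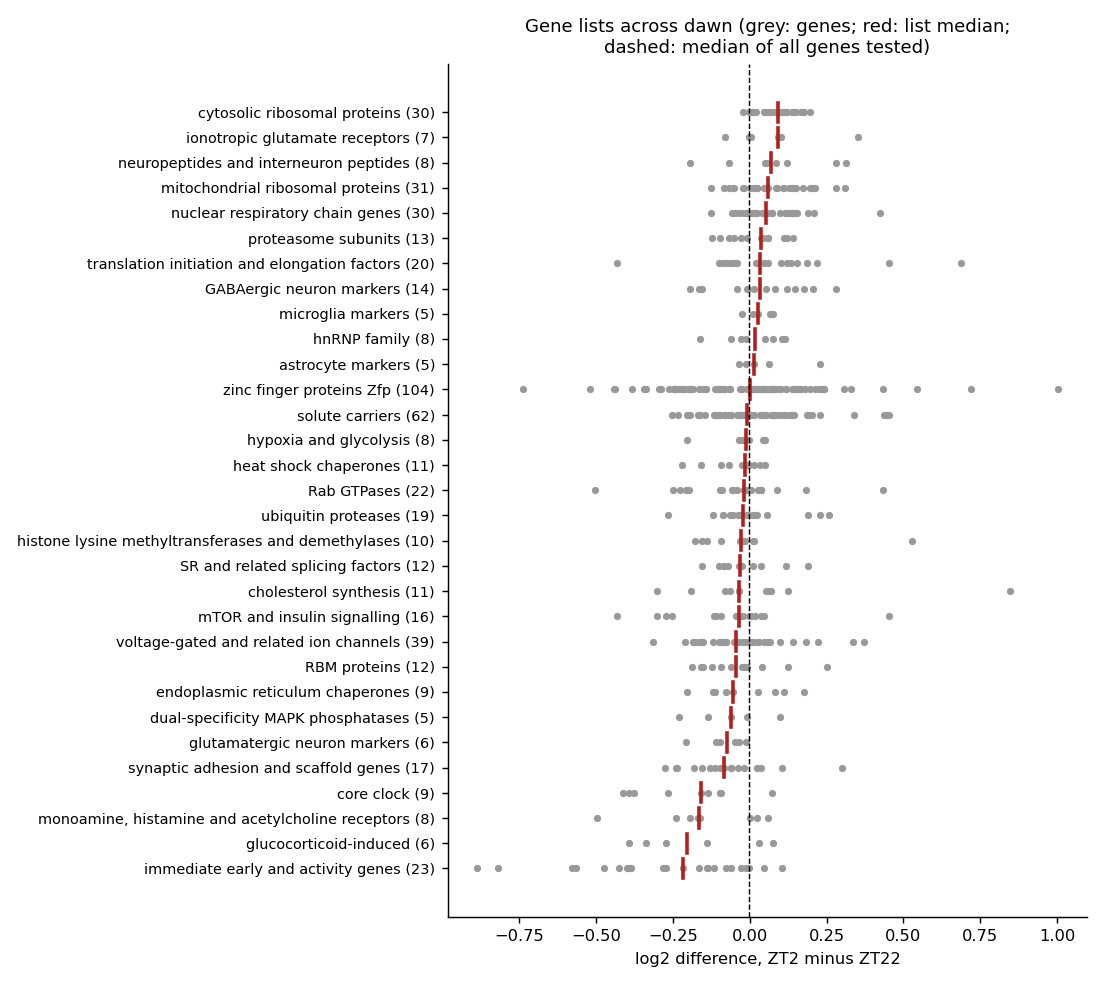
Log2 difference across dawn (horizontal axis, ZT2 minus ZT22) of the members of each gene list with at least 5 tested genes; grey points are genes, red bars list medians and the dashed line the median of all genes tested. Immediate early, glucocorticoid-induced and clock genes have medians of -0.22, -0.21 and -0.16 and monoamine, histamine and acetylcholine receptors -0.17; cytosolic ribosomal protein genes and ionotropic glutamate receptors both have 0.09.

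Summed levels of cell type markers overlapped between the times, and no marker passed. The mean log2 value over 14 GABAergic neuron markers, among them Gad1, Gad2 and Slc32a1, ran from 8.73 to 9.16 over the ZT22 libraries and from 8.77 to 9.09 over the ZT2 libraries. Over 6 glutamatergic markers, among them Slc17a7 and Cux2, it ran from 10.72 to 11.58 and from 10.63 to 11.54. Over 5 astrocyte markers it ran from 11.43 to 12.04 and from 11.42 to 11.96, and over 5 microglia markers from 7.43 to 7.94 and from 7.36 to 8.05. All 6 glutamatergic markers had a negative difference, from -0.21 for Bcl11b to -0.01, none passing. C1ql1 of oligodendrocyte precursors differed by -0.17 ± 0.25 and Lum of the meninges by 0.30 ± 0.41. Penk and Tac1, which mark striatal projection neurons and are also made in cortex, differed by -0.07 ± 0.14 and 0.31 ± 0.21, the latter 0.21 without replicate 4 of the ZT2 females. The lists for endothelium, choroid plexus and blood had no tested member.

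The step across dawn did not pass as different between females and males for any gene (0 of 4273, 0%; 87 at an unadjusted p under 0.05, and 75 with voom). Within females 153 genes had an unadjusted p under 0.05 and within males fewer, and 0 passed in either. Per2 differed by -0.63 ± 0.19 in females and by -0.20 ± 0.19 in males, Per1 by -0.53 ± 0.19 and -0.26 ± 0.19, and Per3 by -0.37 ± 0.14 and -0.38 ± 0.14. Arc differed by -0.46 ± 0.20 in females and by -0.70 ± 0.20 in males. The step of males minus that of females was 0.42 ± 0.27 for Per2 and 0.27 ± 0.26 for Per1, and neither passed.

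The smallest p for a sex difference of the step belonged to Pgls, an enzyme of the pentose phosphate pathway. Pgls shares 776 of its 3770 exonic bases with Fam129c on the same strand, so its reads are uncertain. Its means in females were 8.01 at ZT22 and 8.49 at ZT2, and in males 8.38 and 7.97, so the step of males minus that of females was -0.88 ± 0.26 (adjusted p = 0.999). Dab2, an endocytic adaptor, had a difference of steps of -1.09 ± 0.33, Stat6, a cytokine-activated transcription factor, -1.24 ± 0.39, and Dzip1l 0.71 ± 0.24. Gm38157, a predicted gene at 0 in some libraries, had 4.17 ± 1.27.

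The step across dawn differed from the step across dusk for 5 genes, most of them activity genes. The dusk step, ZT10 to ZT14, shares no library with the dawn step. Across dusk 5 genes passed (0.117% of 4273), 4 higher at ZT14 and 1 lower: Arc rose by 1.16 ± 0.14, Ier5l by 0.87 ± 0.13, Junb by 0.73 ± 0.11 and Tsc22d3 by 0.54 ± 0.11, and Nptx2 fell by 0.78 (SE 0.14). The test of the difference itself, dawn step minus dusk step over 39 libraries, called 5 genes (0.117%), all negative: Arc, Ier5l, Junb, Per2 and Tsc22d3. The same 5 were called by voom. Of these 3 are in the immediate early list of 23, 1 in the clock list of 9 and 1 in the glucocorticoid list of 6. The contrast is signed, so a rise at dusk and a fall at dawn add up in it. Opposite steps of equal size would also differ. None of the 5 passed across dawn, and Per2 passed across neither (dusk step 0.71 ± 0.15, adjusted p = 0.0815, limma).

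Arc stood at 9.96 ± 0.39 (SD, n = 9) at ZT10, 11.14 ± 0.36 at ZT14, 11.47 ± 0.45 at ZT18, 10.90 ± 0.48 at ZT22, 10.33 ± 0.23 at ZT2 and 9.63 ± 0.22 at ZT6 (n = 10 each). Its means were highest from ZT14 to ZT22 and lowest at ZT6. Dawn minus dusk was -1.75 ± 0.21 (SE), with a 95% interval from -2.17 to -1.32 and an adjusted p of 2.45e-06.

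Ier5l stood at 8.39 ± 0.34 (SD) at ZT10 and 9.24 ± 0.20 at ZT14, and was at 8.81 ± 0.37 by ZT18, near its ZT22 mean of 8.79 ± 0.28. Dawn minus dusk was -1.34 ± 0.18 (SE; adjusted p = 1.54e-05). For Junb the means were 9.68 ± 0.37 (SD) at ZT10, 10.42 ± 0.18 at ZT14, 9.85 ± 0.27 at ZT22 and 9.57 ± 0.32 at ZT2, and dawn minus dusk was -1.02 ± 0.17 (SE; adjusted p = 0.000586).

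Per2 went from 8.33 ± 0.37 (SD) at ZT10 to 9.10 ± 0.42 at ZT14, and its dawn minus dusk value was -1.15 ± 0.22 (SE; adjusted p = 0.00454). Tsc22d3 went from 10.15 ± 0.36 (SD) to 10.65 ± 0.37, with dawn minus dusk at -0.88 ± 0.19 (SE; adjusted p = 0.0299), and this call is the least firm: it ended on leaving out any 1 of 17 of the 39 libraries, the adjusted p reaching 0.0882 without replicate 5 of the ZT10 males. Scaled by library totals only Arc passed (adjusted p = 0.00244), although the sizes were much the same, at -1.31 for Ier5l, -0.99 for Junb, -1.12 for Per2 and -0.85 for Tsc22d3. Per1 missed, at -0.74 ± 0.17 with an adjusted p of 0.0588, as did Per3 at -0.62 ± 0.17 (0.188), and Nr1d1 had 0.01 ± 0.21.

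**Figure D4:**
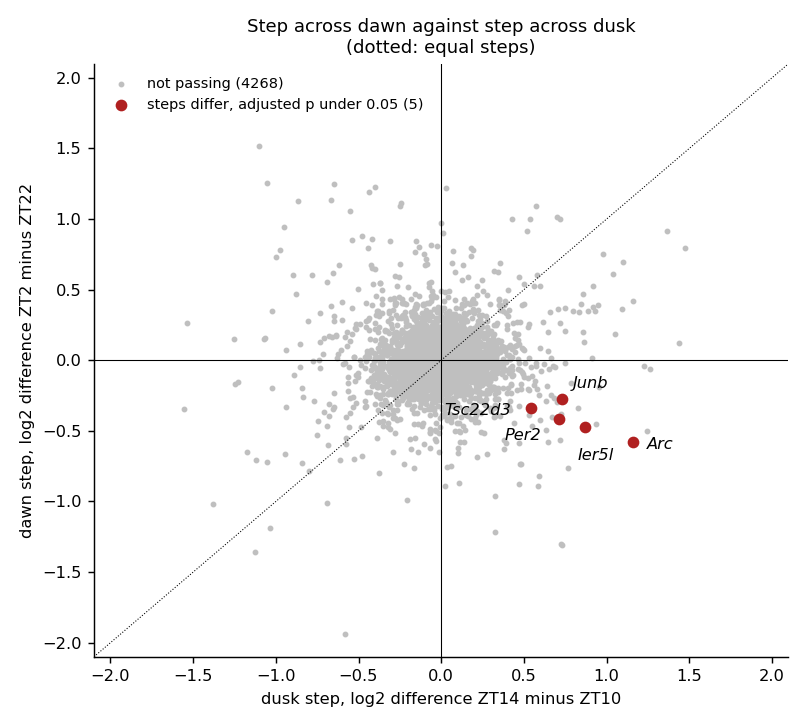
Dawn step (vertical axis, log2 difference ZT2 minus ZT22) against dusk step (horizontal axis, ZT14 minus ZT10) for each of 4273 genes; red points are the 5 genes whose steps differ with an adjusted p under 0.05 and the dotted line marks equal steps. The 5 genes lie in the lower right, positive at dusk and negative at dawn.

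In a model over all 59 libraries the 6 steps of 4 h can be read together, with the caution that neighbouring steps share the libraries of the time between them. The dawn step gave 0 calls there too (0%), as did ZT18 to ZT22 (0%). The next step, ZT2 to ZT6, gave 8 (0.187%): Nr1d1 rose by 0.84, and Arc, Schip1 and Xbp1 fell by 0.70, 0.34 and 0.45. Banp, Rasl10a, Slc25a28 and Omg were the others. The steps ZT10 to ZT14 and ZT14 to ZT18 gave 3 each (0.0702%) and ZT6 to ZT10 gave 1 (0.0234%). From ZT10 to ZT14 these were Arc, Junb and Ier5l, so Tsc22d3 and Nptx2 did not pass across dusk in this model. Nr1d1 had its lowest means of the 6 at ZT22 and ZT2, 9.48 and 9.32, and stood at 10.15 ± 0.43 (SD, n = 10) by ZT6, while Per2 and Per3 were at 8.35 ± 0.42 and 8.78 ± 0.21 at ZT6, close to their ZT2 means. Per1 stood at 9.75 ± 0.35 at ZT6, 0.30 ± 0.12 (SE) above ZT2 in that model (adjusted p = 0.337). Whether the number of genes called differs between steps was not tested.

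**Figure D5:**
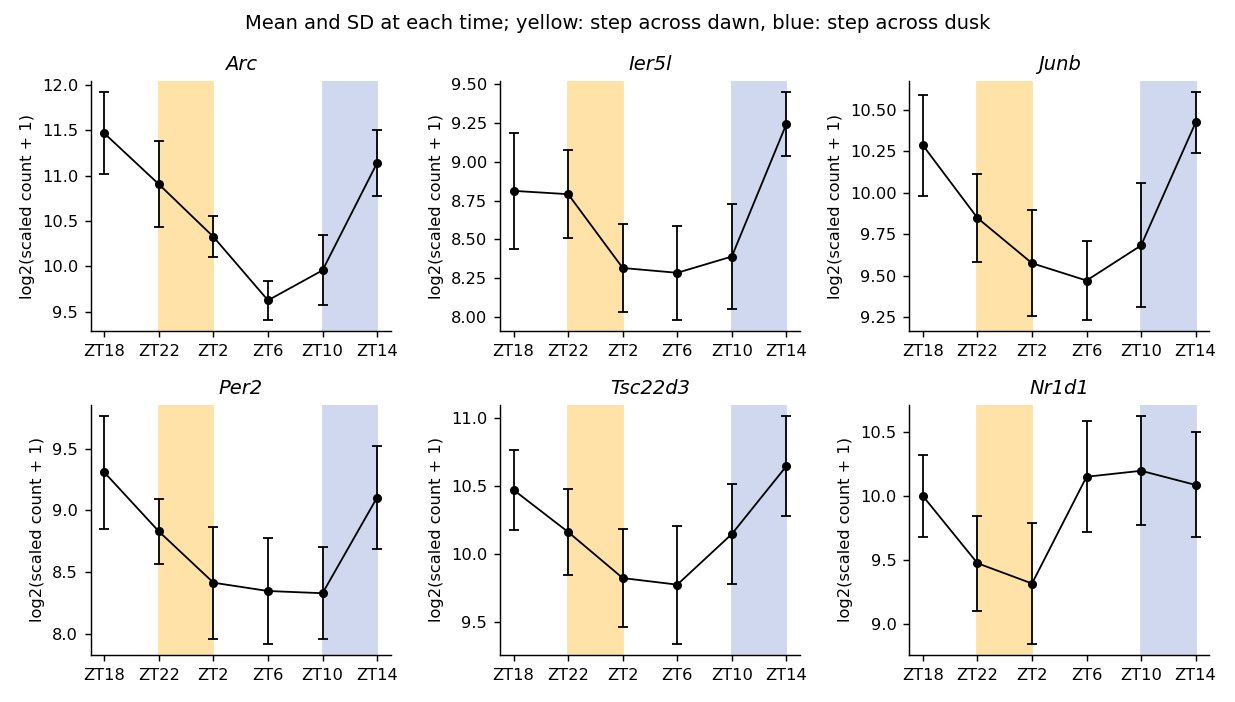
Mean and SD (error bars) of log2(scaled count + 1) at each of 6 times for 6 genes, 10 libraries a time and 9 at ZT10; yellow marks the step across dawn and blue that across dusk. Arc, Ier5l, Junb, Per2 and Tsc22d3 have their lowest means between ZT2 and ZT10, and Nr1d1 has its lowest at ZT2.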

How the data were processed

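The authors deposited 1 table for all libraries; per the submitters' processing notes it was made with FastQC, HTSeq and DESeq2 on GRCm38, and the aligner and strand setting are not given in the sources used here. Per the labels, RNA was isolated with a Qiagen RNeasy kit and made into stranded total RNA libraries with a Takara SMART kit. The deposited values are log2 of a scaled read count plus 1: in every library the unlogged values fell on whole multiples of a step that is 1 read (within 0.1 of a whole number for 100% of 228044 low values). Reads recovered from these steps served for depth, for the filter and for voom.

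Groups came from the titles, and replicates were numbered by runs of 12 serial numbers. The test took the 4273 of 4484 genes that reached 10 recovered reads in 4 or more of the 59 libraries. limma 3.58.1 (R 4.3.3; intensity trend, robust) was fitted to the 20 libraries with time, sex and run as terms, 13 residual degrees of freedom, with Benjamini-Hochberg adjustment across the 4273 genes. Libraries of the same run and sex deviated together in 5 of 10 pairs (correlation over 0.1, mean 0.168, from -0.07 to 0.45). For the same sex in different runs it was 11 of 40 pairs (mean -0.04, from -0.48 to 0.43). Whether libraries of a run share variation was not tested. The run is read from serial numbers and stands in the model because the comparison was defined with it. No pair of libraries in a group was a copy (smallest chi-square per degree of freedom 12.7 over 40 pairs). Library measures were compared by two-sided permutation with 100000 resamples. Symbols, positions and exon overlaps are from GENCODE M21, promoters from RefSeq. The code was tested on simulated data.

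The genes named are every tested clock gene, the 15 genes of smallest p in each direction with a mean log2 value of at least 5, predicted genes passed over (none passed the test), up to 3 genes of smallest p in each list and the 5 of smallest p for the sex and dusk contrasts; some of them are not reported here. Fos, Egr1, Homer1, Nptx2, Plk2, Pdk4, Hspa5, Banp, Rasl10a, Slc25a28, Omg and Serpinb8 were chosen after their values were seen. The comparison and the lists were chosen with earlier results of these data known. Alternatives were no run term, voom, scaling by library totals, other filters, array weights, the first 2 principal components, all libraries, and leaving out libraries.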

Additional observations from a re-analysis of the deposited data

Results flagged for a closer look

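A set of 5 genes stood out because their step across dawn differed from their step across dusk in a direct test (limma, adjusted p under 0.05): Arc by -1.75, Ier5l by -1.34, Per2 by -1.15, Junb by -1.02 and Tsc22d3 by -0.88 on the log2 scale. This signed difference adds a rise at dusk to a fall at dawn, and none of the 5 passed across dawn alone.

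Single libraries lay far from the rest of their group for 3 named genes, judged by the gap to the nearest library as a share of the group's range. Tac1, the precursor of substance P, stood at 5.83 in replicate 2 of the ZT22 males, beside 6.52 to 7.18 in the other ZT22 libraries. Rab4a, a GTPase of endosomal recycling, stood at 8.38 in replicate 3 of the ZT22 males, beside 8.86 to 9.26. Uqcrfs1, the Rieske subunit of complex III, stood at 12.34 in replicate 4 of the ZT2 females, beside 11.16 to 11.66. These are 3 of the 252 groups of 10 values reported on, where chance at 1 in 20 gives 12.6.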

How the results depend on the processing

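Between ZT22 and ZT2 the count of genes that passed stayed at 0 under every alternative but 1, with 145 to 415 genes at an unadjusted p under 0.05 on leaving out single libraries and 41 when scaled by library totals. With the first 2 principal components in the model 1 gene, Hist1h1d, was higher at ZT2 (adjusted p = 0.00388); it was named after its value was seen. Without the replicate block for run, 0 genes passed across dawn (150 at an unadjusted p under 0.05), 0 for the sex difference (68) and 5 for dawn minus dusk. Of those 5, 4 were shared, with Serpinb8 in place of Tsc22d3, whose adjusted p was then 0.193. Libraries of the same run and sex correlated in 5 of 10 pairs, beside 11 of 40 for the same sex in different runs. The block rests on serial numbers alone.

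The 5 genes that differed between dawn and dusk became 1 when scaled by library totals, 10 with array weights, 27 with the first 2 principal components and 8 in the model of all 59 libraries. Leaving out single libraries gave 4 to 9, with 9 without replicate 2 of the ZT10 females and 8 without replicate 4 of the ZT2 males or of the ZT2 females. Tsc22d3 also missed without the libraries numbered 49 to 60 (adjusted p = 0.356) and in the model of all libraries (0.0642). Over single libraries left out, dawn minus dusk ran from -1.83 to -1.66 for Arc, from -1.41 to -1.28 for Ier5l, from -1.10 to -0.96 for Junb, from -1.21 to -1.04 for Per2 and from -0.97 to -0.80 for Tsc22d3. The causes were not tested.

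Of the named genes followed across dawn, 12 changed sign somewhere, none of which passed in any setting. Without the libraries numbered 49 to 60, Arntl2 had 0.55 and Gja1 0.0091. With array weights Pgls had -0.0047, Tmem119 0.023 and Lum -0.0082. With the first 2 principal components Pgls had -0.055, Gm38157 0.085, Dab2 -0.033, Pkm 0.0080 and Tmem119 0.074. Over single libraries left out the range was -0.57 to 0.15 for Arntl2, -0.050 to 0.14 for Pgls, -0.016 to 0.080 for Pgam1, -0.11 to 0.026 for Pkm, -0.058 to 0.0048 for Gja1, -0.032 to 0.16 for Trem2, -0.11 to 0.051 for Tmem119, -0.32 to 0.010 for C1ql1 and -0.14 to 0.021 for Penk. Depth limits genes with few reads a library, where a step of 2-fold could be missed.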
